A study of Mus musculus with 31 samples.

Results

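The 38 genes described here encode the proteins that license, start and carry out the copying of chromosomal DNA in S phase, together with the enzymes that supply its nucleotides, the factors that rebuild chromatin behind the fork, and the E2F factors and E cyclins that open S phase. They were taken from the deposited count table by gene symbol. All 38 symbols were found among its 24421 gene lines, and all 38 passed the filter on low counts, which kept 14036 genes for testing. The choice of genes used no measured value of these libraries, but it was made with earlier results of the same data known.

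Before a cell copies its DNA, the origin recognition complex, Cdc6 and Cdt1 load the ring of Mcm2 to Mcm7 onto origins, a step called licensing, and geminin (Gmnn) blocks Cdt1 once S phase has begun. Cdc45 and the GINS proteins then turn the loaded ring into an active helicase, polymerase alpha with primase lays the first primers, and polymerases delta and epsilon extend them with the sliding clamp Pcna. Most of these genes are switched on together at the end of G1 by E2F factors when the retinoblastoma proteins release them, so that their mRNAs are widely used as a sign of cells entering the cycle. Resting cardiac fibroblasts seldom divide, and they enter the cycle when they are spread on a stiff culture surface or when the heart is injured.

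The study cultured fibroblasts newly isolated from the hearts of C57Bl/6 mice aged 8 to 12 weeks and sequenced their RNA. No genetic change or drug is named for any group. The labels of the groups differ in the arrangement of the cells, its order, the stated time or the stiffness. The libraries also differed in their reads of sex-linked genes, which are given below. The groups were a flat layer (2D), a three-dimensional arrangement (3D), 3D followed by 2D (3D-2D), and that sequence followed by a second 3D phase (3D-2D-3D) or by a further 2D phase (3D-2D-2D). Further groups were 2D and 3D cultures with a stated time of 5 days (2D-5days, 3D-5days) and flat cultures labelled with stiffnesses of 0.5, 8 and 64 kPa (2D-0.5kPa, 2D-8kPa, 2D-64kPa). There were 3 libraries per group, except 2 for 3D-2D, which makes 29 libraries in 10 groups. A label such as 3D-2D-3D was taken to list the arrangements in time order. The sources used here do not state how long cells spent in each arrangement outside the 5-day groups, what the substrate was made of, or how many mice gave a library. The 2 chromatin accessibility samples of the series were not analysed here.

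Gene counts per library ranged from 8509987 to 29909400. All 10 fibroblast markers, such as Col1a1, Pdgfra and Tcf21, were detected in all 29 libraries, with summed levels of 16959 to 75539 CPM (read counts scaled to a common library total), while lymphocyte markers summed to at most 0.716 CPM. The 21 macrophage markers summed to 10164, 7152 and 255 CPM in 3D replicates 1, 2 and 3, to 1408 to 1694 CPM in 2D and to 13754, 3706 and 4428 CPM in 3D-5days. They summed to 3366, 817 and 812 CPM in 2D-5days, 701 to 950 CPM in 3D-2D, 266 to 297 CPM in 3D-2D-3D, 528 to 535 CPM in 3D-2D-2D and 465 to 3006 CPM on the 3 stiffnesses. None of the 21 was at 0 in any library, apart from Cd74 in 2D replicate 1 and 2D-5days replicate 2. Endothelial markers summed to between 14.7 and 125 CPM and epicardial markers to between 0.398 and 76.8 CPM. The 6 mural cell markers summed to 345 to 423 CPM in 2D-5days, 390 to 415 CPM in 3D-2D-2D and 222 to 296 CPM in 3D-2D-3D, and to 45.6 to 169 CPM in the other groups. Kcnj8, in some libraries together with Abcc9, was the mural marker at 0, and the other 4 were detected in all 29 libraries. The 7 cardiomyocyte markers summed to 66.4, 71.9 and 208 CPM in 3D, to 9.98 to 25.7 CPM in 2D and to 1.70 to 166 CPM elsewhere, with up to 4 of the 7 at 0 in a library.

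In several groups 1 library stood apart. Taken over genes, log2 CPM differences between 3D replicates 1 and 2 had an SD of 0.280, against 1.06 and 0.966 for replicate 3 with either of them, and in 2D these SDs were 0.343, 0.760 and 0.750. Replicate 3 was also the distant one in 3D-2D-3D (0.540 and 0.552, against 0.232 between the others) and on the 3 stiffnesses (0.641 to 0.722, against 0.323 to 0.396). At 5 days it was replicate 1, with 0.705 and 0.703 against 0.405 in 2D-5days and 0.753 and 0.736 against 0.413 in 3D-5days. Both 3D-2D libraries, and replicates 1 and 2 in 2D, in 3D and in 3D-2D-3D, held 4780 to 20032 reads of the X-inactivation RNA Xist and 0 to 7 reads of 4 Y-linked genes, while both kinds of reads were present in 3D-2D-2D, at 5 days and in the replicate 3 libraries of 2D, of 3D and of 3D-2D-3D. The 9 stiffness libraries held Y-linked reads and 1 to 7 reads of Xist. Replicate 3 of 2D, 3D and 3D-2D-3D held 2488, 2498 and 2620 Y-linked reads, and thus cells of a source that replicates 1 and 2 lacked. The spread between replicate 3 and the others is there not technical alone. It is not stated whether replicate libraries are separate cultures. The p-values and standard errors cover the spread among the libraries alone, which may be technical between the other libraries. In libraries made from many cells, fewer cells in S phase and less RNA per cell cannot be told apart.

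The promoters of these genes are shown first because many of them are textbook E2F targets. RefSeq windows on GRCm38.p6, the mm10 assembly, run from 250 bases before to 50 bases after an annotated start, and 32 of the 38 genes had at least 1 (39 windows). Mcm4, Gmnn, Gins1, Gins2, Pole and Ccne2 were not matched. The E2F-type letters searched were TTTGGCGC, TTTGCCGC, TTTCGCGC and TTTCCCGC on both strands, where matches may overlap. They occurred in 13 of the 39 windows (33.3%), belonging to 13 genes, against 3.67% of the 13502 windows of all tested genes, 2.26% of all 32851 windows and 5.26% of the 19 windows of a list of mitosis genes. CCAAT stood in 56.4% of the 39 windows, 37.1% of the windows of tested genes and 89.5% of the mitosis windows. The cell cycle homology letters TTTGAA and TTCGAA, which are typical of genes used in mitosis, stood in 20.5%, 13.6% and 84.2%. The 250 bases before the start are given for 4 genes, 5′ to 3′ on the strand of the gene, with every E2F-type match in capitals. Mcm6 lies on the minus strand (upstream bases chr1:128359706-128359955) and had 3 matches, 2 of which overlap. Gins3 lies on the plus strand (chr8:95633309-95633558) and had 1 match. Rrm2, on the plus strand (chr12:24708004-24708253), and Pcna, on the minus strand (chr2:132253181-132253430), had none in these letters.
Mcm6: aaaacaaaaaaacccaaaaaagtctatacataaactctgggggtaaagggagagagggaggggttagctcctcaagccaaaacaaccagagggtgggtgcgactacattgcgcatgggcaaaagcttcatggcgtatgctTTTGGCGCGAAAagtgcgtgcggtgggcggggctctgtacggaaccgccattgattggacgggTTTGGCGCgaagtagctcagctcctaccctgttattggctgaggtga
Gins3: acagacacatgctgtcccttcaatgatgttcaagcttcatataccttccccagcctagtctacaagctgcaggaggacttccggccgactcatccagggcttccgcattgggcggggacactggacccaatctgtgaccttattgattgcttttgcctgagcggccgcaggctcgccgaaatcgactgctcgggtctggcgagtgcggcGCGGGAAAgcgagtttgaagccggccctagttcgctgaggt
Rrm2: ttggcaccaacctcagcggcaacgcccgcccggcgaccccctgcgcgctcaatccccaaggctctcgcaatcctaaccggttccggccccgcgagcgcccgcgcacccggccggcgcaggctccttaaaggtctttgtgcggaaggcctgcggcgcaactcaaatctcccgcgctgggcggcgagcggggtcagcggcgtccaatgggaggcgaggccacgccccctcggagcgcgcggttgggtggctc
Pcna: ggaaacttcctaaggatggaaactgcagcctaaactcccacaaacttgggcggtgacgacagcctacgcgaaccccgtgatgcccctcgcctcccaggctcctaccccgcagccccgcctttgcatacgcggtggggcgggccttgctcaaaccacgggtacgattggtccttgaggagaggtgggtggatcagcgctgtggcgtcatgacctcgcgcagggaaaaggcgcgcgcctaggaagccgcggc

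Levels are CPM scaled by the effective library total, and they are compared between libraries, not between genes, because they are not divided by transcript length. Averaged over the 38 genes, the mean log2 CPM per group was 5.24 in 2D, 4.96 in 3D-2D, 4.60 to 4.75 on the 3 stiffnesses, 3.16 in 3D-2D-2D, 3.12 in 2D-5days, 3.05 in 3D, 2.71 in 3D-5days and 2.52 in 3D-2D-3D. Thus 33 of the 38 genes had their highest group mean in 2D, 4 in 3D-2D (Cdc6, Pola2, Rpa2 and Ccne1) and 1 in 2D-0.5kPa (Tyms). The lowest group mean was in 3D-2D-3D for 21 genes, in 3D-5days for 11, in 2D-5days for 4 and in 3D-2D-2D for 2. The ratio of the highest to the lowest group mean ran from 2.17 for E2f1 and 2.20 for Gins3 to 42.8 for E2f8 and 46.3 for Rrm2, with a median of 6.70. It was at least 10 for 11 genes: Gmnn, Mcm10, Pole, Mcm5, Tk1, Uhrf1, Prim1, Ccne2, Cdc6, E2f8 and Rrm2.

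**Figure D1:**
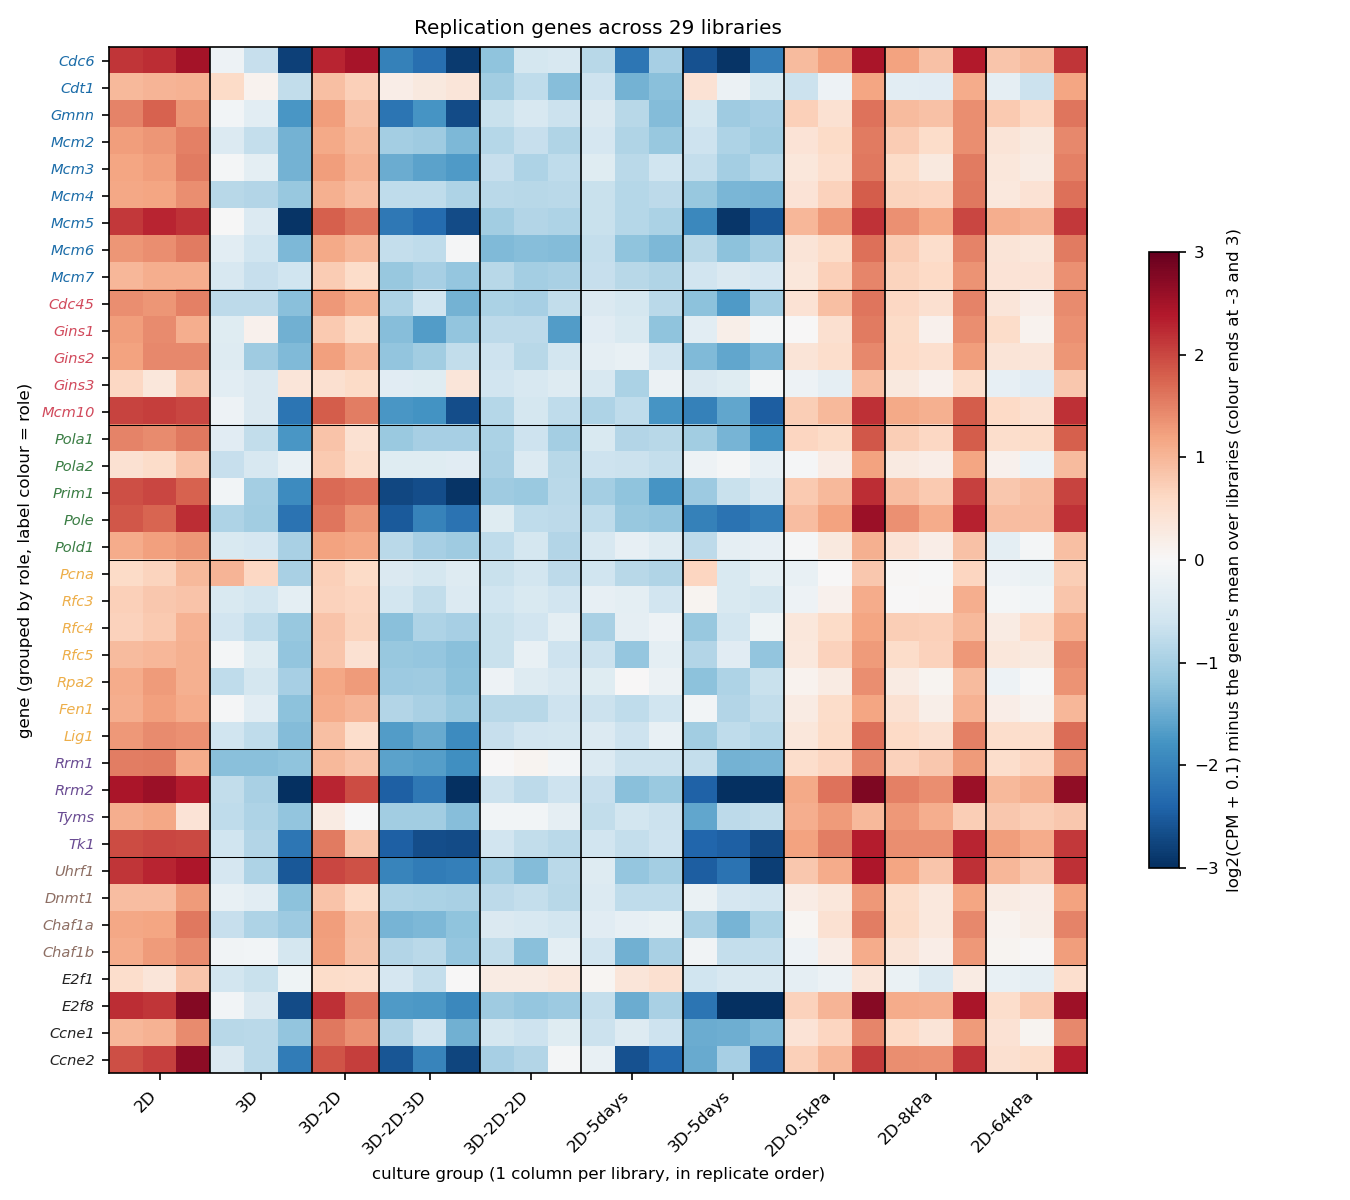
Colour map of the 38 genes (rows, grouped by role) in the 29 libraries (columns, by culture group). Colour is log2(CPM + 0.1) minus the mean of the gene over all libraries, with the scale ending at -3 and 3. Most genes are high in 2D, 3D-2D and the stiffness groups and low in the other groups. In the 3 stiffness groups replicate 3 stands above replicates 1 and 2.

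The first comparison set 3D against 2D cultures with no stated time. Replication genes were lower in 3D as a block: 35 of 38 fell and 0 rose at an adjusted p under 0.05, against 27.3% of all tested genes called lower, and the median log2 change of the 38 was -2.13, against 0.03 over all tested genes. Values after ± are standard errors, and adjusted p-values are from edgeR's quasi-likelihood test with Benjamini-Hochberg adjustment over all tested genes, with n = 3 libraries per group and n = 2 for 3D-2D. All 35 falls were at least 2-fold. The libraries of the groups did not overlap for 36 of the 38 genes. The share of all tested genes without overlap was not computed, so that this count has no background beside it.

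Of the 9 licensing genes 8 fell. Mcm4, a subunit of the helicase ring, was at 98.6, 99.9 and 115 CPM in 2D and at 24.6, 23.6 and 19.8 CPM in 3D (mm10 chromosome 16, 15623897 to 15637400). The groups did not overlap, and the log2 change was -2.21 ± 0.33 (adjusted p = 8.5e-06). Mcm6 was at 115, 121 and 136 CPM in 2D and at 36.8, 30.1 and 17.9 CPM in 3D, a change of -2.13 ± 0.36. Mcm5, another subunit, had one of the largest spreads in 3D, with 18.6, 14.3 and 2.36 CPM against 82.0, 92.8 and 84.6 CPM in 2D. It fell by 2.89 ± 0.47 on the log2 scale, and 3D replicate 3 was the lowest library. Cdc6, the loader of the ring, was at 14.7, 15.4 and 18.8 CPM in 2D and at 2.89, 1.96 and 0.382 CPM in 3D (-3.25 ± 0.55). Its partner Cdt1 was at 32.0, 32.8 and 33.4 CPM in 2D and at 24.1, 17.5 and 9.75 CPM in 3D. The groups did not overlap, but the change of -0.94 ± 0.47 was not called (adjusted p = 0.093).

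Of the 5 helicase activation genes 4 fell. Cdc45, which completes the active helicase, was at 18.5, 17.7 and 20.1 CPM in 2D and at 3.96, 4.01 and 2.85 CPM in 3D, a change of -2.38 ± 0.33. Gins2, a GINS subunit, was at 20.6, 24.1 and 24.3 CPM in 2D and at 6.70, 4.15 and 3.47 CPM in 3D (-2.27 ± 0.29). Its partner Gins3 was at 5.91, 4.81 and 6.96 CPM in 2D and at 3.05, 2.82 and 4.93 CPM in 3D. These groups overlapped, and the change of -0.71 ± 0.32 was not called (adjusted p = 0.066). Gins3 was called with the replicate number as a block (-0.73, adjusted p = 0.045) and without 3D replicate 3 (-1.02, adjusted p = 0.020).

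All 5 polymerase and primase genes fell. Pole, the catalytic subunit of the leading strand polymerase, fell by 3.29 ± 0.43 on the log2 scale, from 52.4, 48.6 and 66.8 CPM to 7.47, 6.92 and 2.98 CPM. Pold1, the catalytic subunit of polymerase delta, was at 42.4, 46.1 and 48.7 CPM in 2D and at 14.2, 13.8 and 9.82 CPM in 3D (-1.86 ± 0.27). Pola2, the regulatory subunit of polymerase alpha, had the smallest fall of the 5, from 24.5, 25.9 and 32.1 CPM to 11, 12.8 and 15.3 CPM (-1.08 ± 0.29). With replicate 3 alone of each group its call was lost (-1.05), as was that of Rfc3, a clamp loader subunit (-1.14). Both groups were separate for each of these 3 genes.

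Among the 7 genes of the clamp, its loader, single-strand binding and Okazaki fragment joining, 6 fell and Pcna did not pass the test. Lig1, the ligase that seals Okazaki fragments, was at 59.1, 63.6 and 62.0 CPM in 2D and at 15.8, 14.1 and 9.68 CPM in 3D, a change of -2.23 ± 0.33. Pcna, the sliding clamp, was at 110, 118 and 146 CPM in 2D and at 150, 115 and 37.7 CPM in 3D. The groups overlapped and the change was -0.31 ± 0.37 (adjusted p = 0.49). The value turned on the libraries: it was 0.07 without 3D replicate 3, 0.22 with replicates 1 and 2 alone (adjusted p = 0.64) and -1.94 with replicate 3 alone of each group, which was called (adjusted p = 0.014). That last fit has 1 library per group here and takes its spread from the other groups. Both 3D libraries with high Pcna were those with macrophage marker sums of 10164 and 7152 CPM, and replicate 3, at 37.7 CPM, had a sum of 255 CPM. The split was not particular to Pcna. Averaged over the 38 genes, 3D replicates 1 and 2 lay 1.01 and 0.80 log2 units above replicate 3. The part of macrophage RNA in the Pcna level or in this average was not tested.

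All 4 nucleotide supply genes fell, with the largest median of the 7 roles (-2.87). Rrm2, the S-phase subunit of ribonucleotide reductase, had the largest fall of all 38 genes: 121, 131 and 112 CPM in 2D against 13.1, 11.2 and 2.43 CPM in 3D, a change of -3.78 ± 0.57 (adjusted p = 1.0e-05; mm10 chromosome 12, 24708254 to 24714146). Rrm1, its large partner subunit, was at 389, 399 and 293 CPM in 2D and at 56.2, 57.1 and 58.4 CPM in 3D (-2.65 ± 0.25). The 3D libraries of Rrm1 lay close together, unlike those of Rrm2. Tk1, thymidine kinase, fell by 3.08 ± 0.36 and Tyms, thymidylate synthase, by 1.87 ± 0.19 on the log2 scale.

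All 4 chromatin genes and all 4 E2F and cyclin genes fell. Uhrf1, which brings the maintenance methyltransferase to newly copied DNA, was at 81.2, 89.6 and 97.7 CPM in 2D and at 12.7, 9.60 and 3.02 CPM in 3D, a change of -3.42 ± 0.49. That methyltransferase, Dnmt1, fell less, from 164, 164 and 209 CPM to 74.3, 69.1 and 36.8 CPM (-1.58 ± 0.30). Chaf1a, the large subunit of the chromatin assembly factor, was at 45.7, 46.1 and 61.2 CPM in 2D and at 12.5, 10.6 and 9.44 CPM in 3D (-2.24 ± 0.36). Both groups were separate in each of these genes.

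Ccne2, one of the E cyclins that drive entry into S phase, was at 8.24, 9.07 and 14 CPM in 2D and at 1.52, 1.15 and 0.416 CPM in 3D (-3.37 ± 0.58). Ccne1, the other, was at 23.9, 24.8 and 32.4 CPM in 2D and at 6.70, 6.78 and 5.24 CPM in 3D (-2.12 ± 0.31). E2f8, a repressor E2F that is itself an E2F target, fell by 3.17 ± 0.62 on the log2 scale. E2f1, the activator E2F, was at 48.7, 43.4 and 59.9 CPM in 2D and at 22.8, 21.1 and 31.1 CPM in 3D. It fell by 1.02 ± 0.22 (adjusted p = 0.00053), the smallest called fall of the 38, and its call was lost with replicate 3 alone of each group (-0.93).

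Changes of genes with and without an E2F-type promoter match covered overlapping ranges in this comparison. Of the 13 genes with a match 11 fell, with changes from -3.42 to -0.71 and a median of -1.86. Of the 19 genes with a window and no match 18 fell, with changes from -3.78 to -0.31 and a median of -2.12. Gins3 and Cdt1, which were not called, had a match, and Pcna had none.

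**Figure D2:**
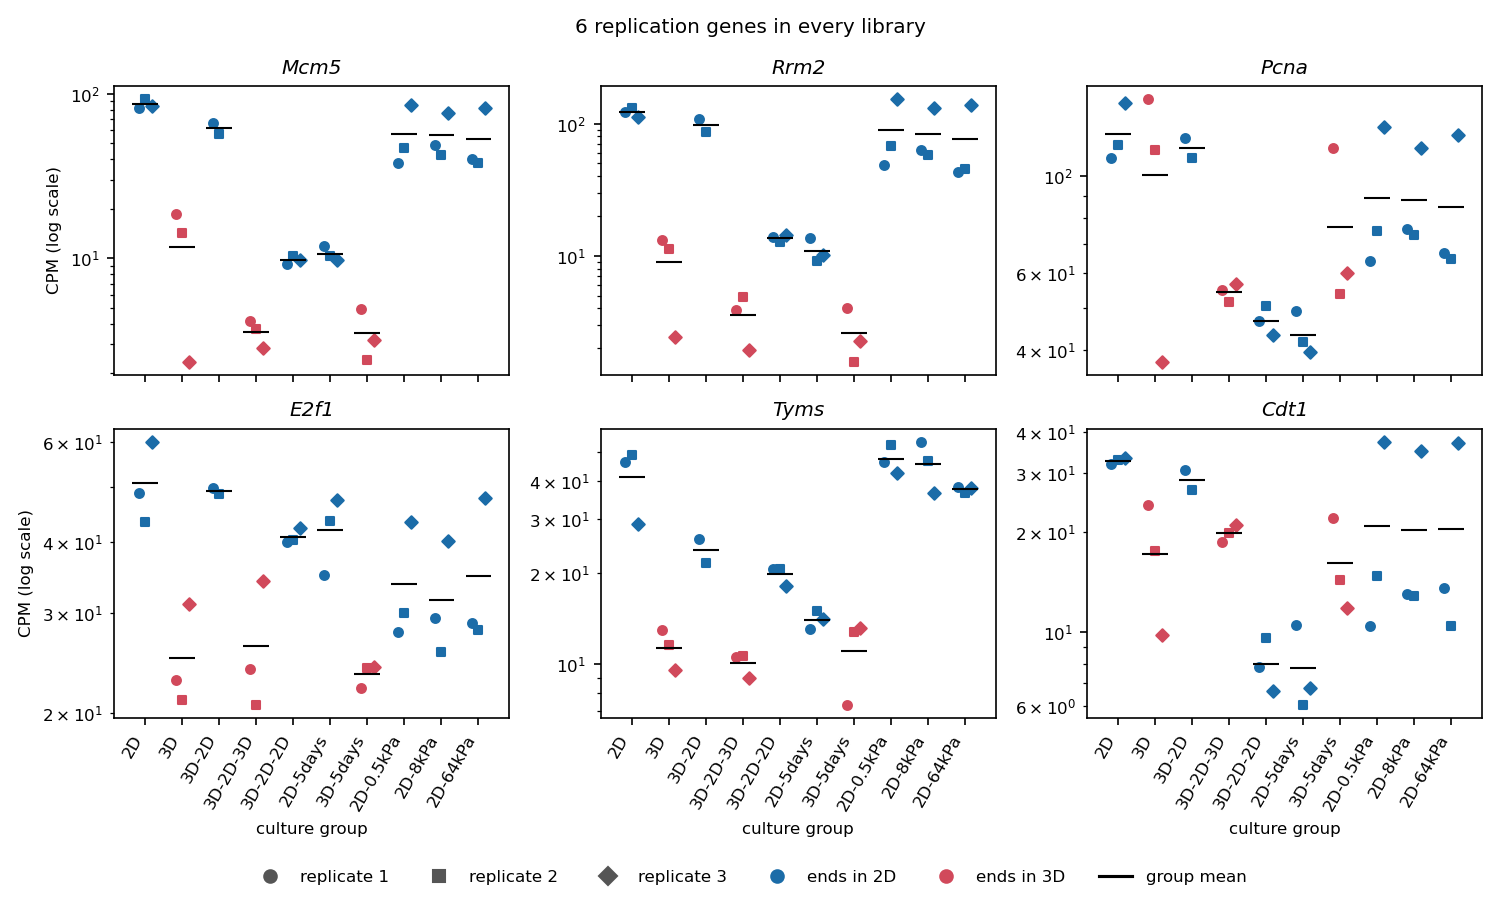
Level in CPM (log axis) of 6 replication genes in every library, by culture group. Marker shape gives the replicate, colour whether the culture ended in 2D or 3D, and the bar the group mean. Rrm2 lies between 112 and 131 CPM in 2D and between 2.43 and 13.1 CPM in 3D, while Pcna overlaps between these groups.

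The next comparisons followed cells moved from 3D to 2D. Replication genes were high again in 3D-2D: 35 of 38 rose against 3D and 0 fell, against 28.8% of all tested genes called higher, with a median of 1.79. The genes not called were again Pcna (0.21 ± 0.41), Gins3 (0.62 ± 0.35) and Cdt1 (0.75 ± 0.51). This comparison and the first share the 3D libraries, and the values of each are given on their own. Rrm2 rose to 108 and 85.7 CPM (3.45 ± 0.59), Cdc6 to 16.1 and 18.4 CPM (3.33 ± 0.58), Uhrf1 to 73.0 and 68.9 CPM (3.08 ± 0.51) and Ccne2 to 8.02 and 9.13 CPM (3.08 ± 0.61). Mcm4 rose to 91.3 and 83.0 CPM (1.94 ± 0.35) and Mcm6 to 101 and 91.2 CPM (1.77 ± 0.38). In each of these 6 genes both 3D-2D libraries lay above all 3D libraries. With replicate 3 alone of 3D, a single library, the calls of E2f1 (0.64), Pola2 (0.86) and Rfc3 (0.95) were lost and Pcna was called higher (1.60, adjusted p = 0.016), whereas with replicates 1 and 2 alone Pcna was at -0.21. Gins3 was called without 3D replicate 3 (0.93, adjusted p = 0.041). Of the 35 calls 31 held whichever library was left out, while Gins1 lost its call in 4 of 5 such fits, and Pola2, Rfc5 and Chaf1b lost theirs without 3D-2D replicate 1.

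Against 2D itself, 1 of 38 genes was called lower in 3D-2D and 0 higher, with 7.54% of all tested genes called lower and a median of -0.28. That gene was Tyms, at 46.3, 48.7 and 28.9 CPM in 2D and at 25.8 and 21.5 CPM in 3D-2D (-0.80 ± 0.21, adjusted p = 0.016). Its groups did not overlap, although 2D replicate 3 lay nearer to 3D-2D than to the other two. The call was lost without 2D replicate 1 or 2 and without either 3D-2D library, when 0 genes were called. The 95% interval of the difference was -0.99 to 0.46 for Mcm4 and -1.50 to 0.84 for Rrm2, on the log2 scale.

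A second 3D phase again went with low levels. In 3D-2D-3D against 3D-2D, 36 of 38 genes fell and 0 rose, against 25.0% of all tested genes called lower, with a median of -2.18. Gins3 (-0.61 ± 0.35) and Cdt1 (-0.53 ± 0.51) were not called. Cdc6 was at 0.716, 0.590 and 0.355 CPM in 3D-2D-3D (-4.95 ± 0.63), Rrm2 at 3.92, 4.86 and 1.94 CPM (-4.77 ± 0.62), Ccne2 at 0.273, 0.454 and 0.226 CPM (-4.76 ± 0.67) and Prim1, the catalytic primase subunit, at 0.648, 0.681 and 0.548 CPM (-4.64 ± 0.51). These 4 were the largest falls, and 3D-2D lay above 3D-2D-3D in every library. Pcna passed the test here, from 122 and 110 CPM to 54.7, 51.5 and 56.8 CPM (-1.10 ± 0.40, adjusted p = 0.029), where macrophage marker sums were 701 to 950 CPM in 3D-2D and 266 to 297 CPM in 3D-2D-3D. The call of Pcna was lost in 4 of the 5 fits that left out a library (-1.17 to -1.04, adjusted p up to 0.11), all but the one without 3D-2D-3D replicate 3, and that of Pola2 was lost without 3D-2D replicate 1. The other 34 calls held in all 5. With replicate 3 alone of 3D-2D-3D the calls of Mcm6, Pola2, Pcna, Rfc3 and E2f1 were lost. Mural cell markers summed to 45.6 to 49.1 CPM in 3D-2D and to 222 to 296 CPM in 3D-2D-3D, and their part was not tested.

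A further 2D phase also went with low levels. In 3D-2D-2D against 3D-2D, 36 of 38 genes fell and 0 rose, against 23.6% of all tested genes called lower, with a median of -1.82. Mcm6 was at 101 and 91.2 CPM in 3D-2D and at 18.3, 18.7 and 18.6 CPM in 3D-2D-2D (-2.38 ± 0.39). Uhrf1 fell to 9.01, 7.35 and 10.3 CPM (-2.99 ± 0.52) and Rrm2 to 13.9, 12.7 and 14.3 CPM (-2.82 ± 0.58). All 3 genes held a narrow range over the 3D-2D-2D libraries. Tyms, at 20.5, 20.6 and 18.1 CPM (-0.26 ± 0.21, adjusted p = 0.32), and E2f1, at 40.01, 40.3 and 42.2 CPM against 49.7 and 48.5 CPM (-0.27 ± 0.24, adjusted p = 0.39), were not called. Rrm1 fell by 0.91 ± 0.26 on the log2 scale, to 136, 142 and 127 CPM, the smallest called fall of the 36. Of the 36 calls 32 held whichever library was left out. Gins3 lost its call in 4 of 5 such fits, and Pola1, Pcna and Rfc5 lost theirs without 3D-2D replicate 1. Mural cell markers summed to 390 to 415 CPM in 3D-2D-2D, and their part in this comparison was not tested. Both 3D-2D libraries held 0 reads of the 4 Y-linked genes, and the 3D-2D-2D libraries held 960, 663 and 906. The source of the cells thus differed along with the further 2D phase, and its part was not tested. These 2 comparisons share the 3D-2D libraries.

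Set directly against each other, 3D-2D-3D was lower than 3D-2D-2D in 13 genes, with 20.6% of all tested genes called lower, and higher in 1, with 19.8% called higher. The median was -0.60, against -0.01 over all tested genes. All 4 nucleotide supply genes were lower: Rrm2 by 1.95 ± 0.57, Tk1 by 1.94 ± 0.38, Rrm1 by 1.69 ± 0.24 and Tyms by 0.97 ± 0.19 on the log2 scale. Rrm1 was at 44.5, 43.2 and 38 CPM in 3D-2D-3D and at 136, 142 and 127 CPM in 3D-2D-2D (adjusted p = 8.2e-06). The other genes that were lower were Cdc6, Gmnn, Mcm5, Mcm10, Prim1, Pole, Lig1, E2f1 and Ccne2. Cdt1 was the exception, at 18.6, 19.9 and 21.0 CPM in 3D-2D-3D and at 7.83, 9.55 and 6.64 CPM in 3D-2D-2D (1.31 ± 0.49, adjusted p = 0.037), with no overlap. The 6 genes of the Mcm ring ran from -1.44 ± 0.49 for Mcm5 to 0.84 ± 0.36 for Mcm6, and Mcm5 alone of the 6 was called. The count of 14 was 8 to 9 without 3D-2D-3D replicate 2 or 3 or 3D-2D-2D replicate 3, and 7 of the 14 genes were called in all 6 fits that left out a library. Cdt1 and Mcm10 were called in none of them. Cdc6 lost its call in 4, Mcm5, E2f1 and Ccne2 in 3 each and Lig1 in 1. E2f1 also lost it with library totals as the only scaling (-0.41). With the most alike libraries of each group summed, which was tried after the data had been seen, 6 genes passed in place of 14. A fit of the compared groups alone called 24. The libraries held 1, 0 and 2620 Y-linked reads in 3D-2D-3D and 960, 663 and 906 in 3D-2D-2D. Fibroblast markers summed to 18034 to 25029 and 69355 to 75539 CPM, and mural cell markers to 222 to 296 and 390 to 415 CPM. The part of the source and mix of cells in this comparison was not tested.

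In 3D-2D-3D against the first 3D state, 5 of 38 genes were lower and 0 higher, with a median of -0.48. Of all tested genes 11.8% were called lower, a share close to the 5 of 38. The 5 were Gmnn (-1.70 ± 0.39), Mcm3 (-1.11 ± 0.37), Mcm5 (-1.70 ± 0.48), Prim1 (-2.10 ± 0.48) and Tk1 (-1.56 ± 0.37). Prim1 was at 4.62, 2.34 and 1.25 CPM in 3D and at 0.648, 0.681 and 0.548 CPM in 3D-2D-3D, with no overlap. The count was 16 without 3D replicate 3, 3 without 3D replicate 1 or 2 or 3D-2D-3D replicate 3, and 0 with replicate 3 alone of both groups, where each group is 1 library and the spread comes from the other groups. Mcm3 lost its call in 5 of the 6 fits that left out a library and Mcm5 in 3, and Gmnn, Prim1 and Tk1 kept theirs. In 3D replicates 1 and 2 macrophage markers summed to 10164 and 7152 CPM and in replicate 3 to 255 CPM, and 18 of the 21 macrophage markers were called lower in 3D-2D-3D. Their part in these 5 calls was not tested.

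**Figure D3:**
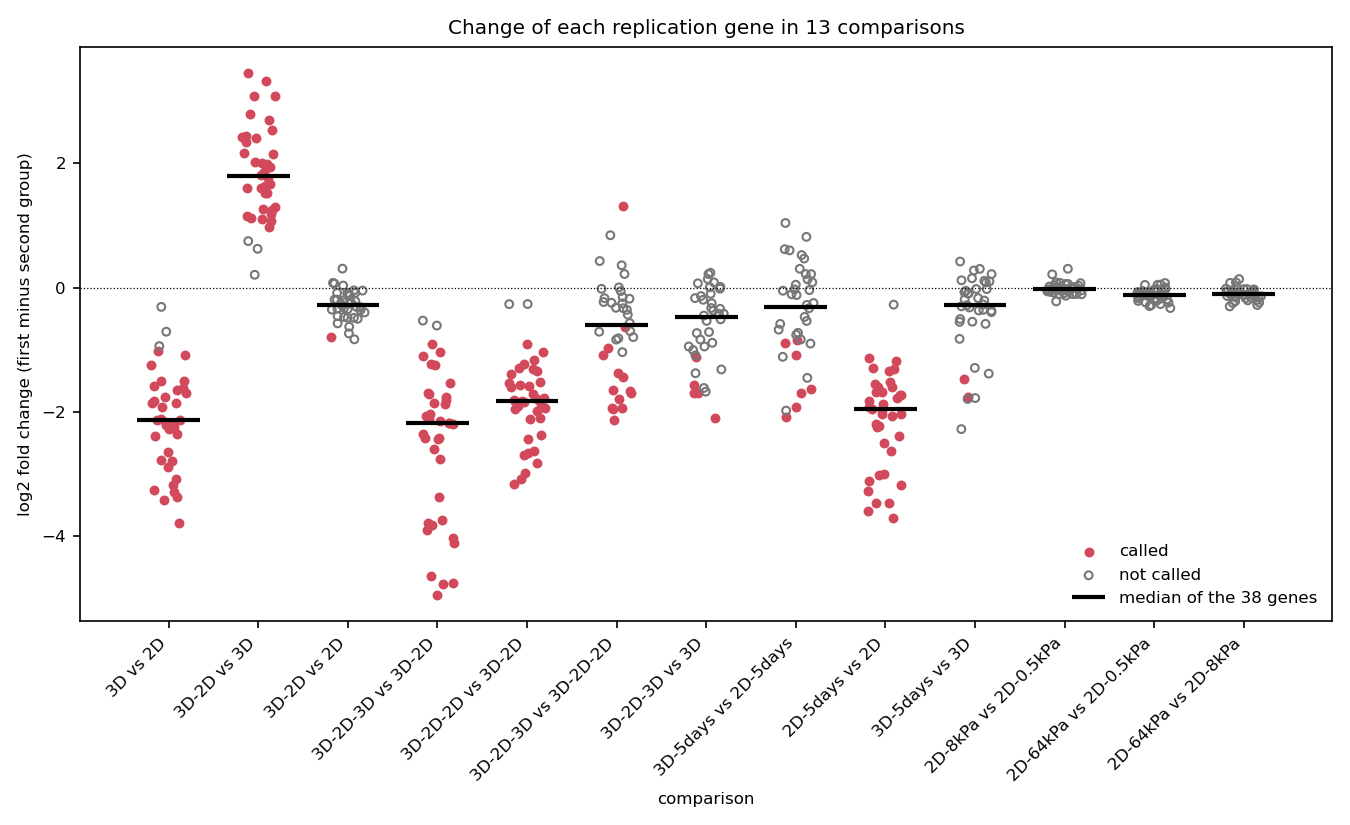
Log2 fold change (y axis, first minus second group) of each of the 38 genes in 13 comparisons (x axis). Filled points passed the test at an adjusted p under 0.05, open points did not, and the bar is the median of the 38. The medians are -2.13 in 3D against 2D, 1.79 in 3D-2D against 3D, -2.18 and -1.82 in the phases after 3D-2D, and near 0 for the stiffnesses.

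At 5 days the gap between 3D and 2D was smaller for these genes. In 3D-5days against 2D-5days, 7 of 38 genes fell and 0 rose, with 17.5% of all tested genes called lower, a share close to the 7 of 38, and the median was -0.31. The 7 were Mcm5, Gins2, Rrm2, Tk1, Uhrf1, E2f1 and Ccne1. Rrm2 was at 13.6, 9.13 and 10.1 CPM in 2D-5days and at 4.0, 1.59 and 2.29 CPM in 3D-5days (-2.09 ± 0.65, adjusted p = 0.017). E2f1 was at 35, 43.6 and 47.4 CPM in 2D-5days and at 22.1, 24.0 and 24.1 CPM in 3D-5days (-0.84 ± 0.23, adjusted p = 0.0063). The groups did not overlap in either gene. In contrast Mcm6 was at 27.8, 19.8 and 18.1 CPM and at 25.8, 19.6 and 22.5 CPM, with overlap and a difference of 0.05 ± 0.36. Pold1 (-0.05 ± 0.27) and Mcm2 (-0.03 ± 0.32) were likewise near 0.

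The replicate numbers of the 5-day groups met the rule for pairs, with correlations of deviations of 0.572, 0.288 and 0.337 for numbers 1, 2 and 3. A library with another number correlated slightly more for numbers 2 (0.317) and 3 (0.346), so that the pairing rests mainly on number 1. With the number as a block 20 genes were called in place of 7. Of these, 15 were lower, with 20.3% of all tested genes called lower and 21.9% higher by the same block, among them Chaf1a (-0.81), Rrm1 (-0.58) and Mcm4 (-0.50), and 5 were higher: Cdt1 (1.07), Pcna (0.78), Pola2 (0.56), Mcm7 (0.34) and Dnmt1 (0.25). Pcna was at 116, 53.8 and 60.1 CPM in 3D-5days and at 49.1, 41.6 and 39.6 CPM in 2D-5days, where macrophage markers summed to 13754, 3706 and 4428 CPM and to 3366, 817 and 812 CPM. Pcna and the macrophage sum were both highest in replicate 1 of each group, and the part of one in the other was not tested. Averaged over the 38 genes, replicate 1 also lay above replicates 2 and 3. The differences were 0.28 and 0.26 log2 units in 2D-5days and 0.16 and 0.17 in 3D-5days. The filter of that fit dropped Cdc6 and Ccne2, so that 36 genes were tested. Without the block, Tk1 alone passed with the most alike libraries summed, and 3 to 4 genes were called without 2D-5days replicate 1 or 3D-5days replicate 2 or 3. Gins2, Tk1 and E2f1 were called whichever library was left out, and Mcm5, Rrm2 and Uhrf1 lost their calls in 3 of 6 such fits each. Ccne1 lost its call in all 6 (adjusted p = 0.061 to 0.12) and with RLE size factors (0.052), no filter (0.056) and library totals alone (0.086).

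The smaller gap at 5 days went with lower levels in 2D. In 2D-5days against 2D, 37 of 38 genes fell and 0 rose, with 22.3% of all tested genes called lower and a median of -1.96. Mcm6 was at 115, 121 and 136 CPM in 2D and at 27.8, 19.8 and 18.1 CPM in 2D-5days (-2.50 ± 0.37), and Cdc6 fell from 14.7, 15.4 and 18.8 CPM to 1.77, 0.643 and 1.58 CPM (-3.59 ± 0.61). Ccne2 fell by 3.71 ± 0.65, Rrm2 by 3.47 ± 0.57 and E2f8 by 3.47 ± 0.67 on the log2 scale. E2f1, the gene not called, was at 48.7, 43.4 and 59.9 CPM in 2D and at 35, 43.6 and 47.4 CPM in 2D-5days. These groups overlapped, and the difference was -0.27 ± 0.22 (adjusted p = 0.33). Pcna fell by 1.52 ± 0.38 on the log2 scale, to 49.1, 41.6 and 39.6 CPM, and Cdt1 by 2.07 ± 0.50, to 10.5, 6.04 and 6.78 CPM. The 5-day libraries and the 2D libraries with no stated time also differed in their Xist and Y-linked reads. Mural cell markers summed to 78.4 to 125 CPM in 2D and to 345 to 423 CPM in 2D-5days. The part of the source of the cells and of mural cell RNA was not tested.

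In 3D-5days against 3D, by comparison, 2 of 38 genes were lower and 0 higher, with a median of -0.28. Of all tested genes 5.88% were called lower, a share close to the 2 of 38. The 2 genes were Mcm5 and Tk1. Mcm5 was at 18.6, 14.3 and 2.36 CPM in 3D and at 4.89, 2.42 and 3.18 CPM in 3D-5days (-1.75 ± 0.52). Tk1 was at 7.21, 5.87 and 2.36 CPM in 3D and at 2.00, 1.92 and 1.59 CPM in 3D-5days (-1.47 ± 0.41). The groups overlapped in Mcm5. The count was 7 without 3D replicate 3 and 0 without 3D replicate 1 or 2 or 3D-5days replicate 2 or 3.

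The difference between the 2 effects of 3D was tested itself, as the 5-day effect minus the effect with no stated time. It was called above 0 in 27 of 38 genes and below 0 in none, with 12.3% of all tested genes called higher. The median was 1.69. Prim1 had the largest difference, 3.38 ± 0.66 (adjusted p = 0.00077), since its change was -2.78 ± 0.44 between 3D and 2D and 0.60 ± 0.50 at 5 days. Ccne2 differed by 3.13 ± 0.98, Mcm6 by 2.18 ± 0.50 and Rrm1 by 2.07 ± 0.34. E2f1 had the smallest difference, 0.18 ± 0.32 (adjusted p = 0.73), with changes of -1.02 ± 0.22 and -0.84 ± 0.23. Rrm2 (1.70 ± 0.85), Mcm5 (1.27 ± 0.70), Tk1 (1.16 ± 0.55) and Cdc6 (1.80 ± 1.0) were not called either. Of the 27 genes 18 were called in all 12 fits that left out a library, Prim1, Mcm6 and Rrm1 among them. Ccne1 lost its call in all 12, Chaf1a in 10, Gins2 and Pola1 in 9 each, Cdt1 in 8, Mcm3 in 6 and Rfc3, Rfc5 and Ccne2 in 3 each. Summing the most alike libraries left 8 genes called.

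**Figure D4:**
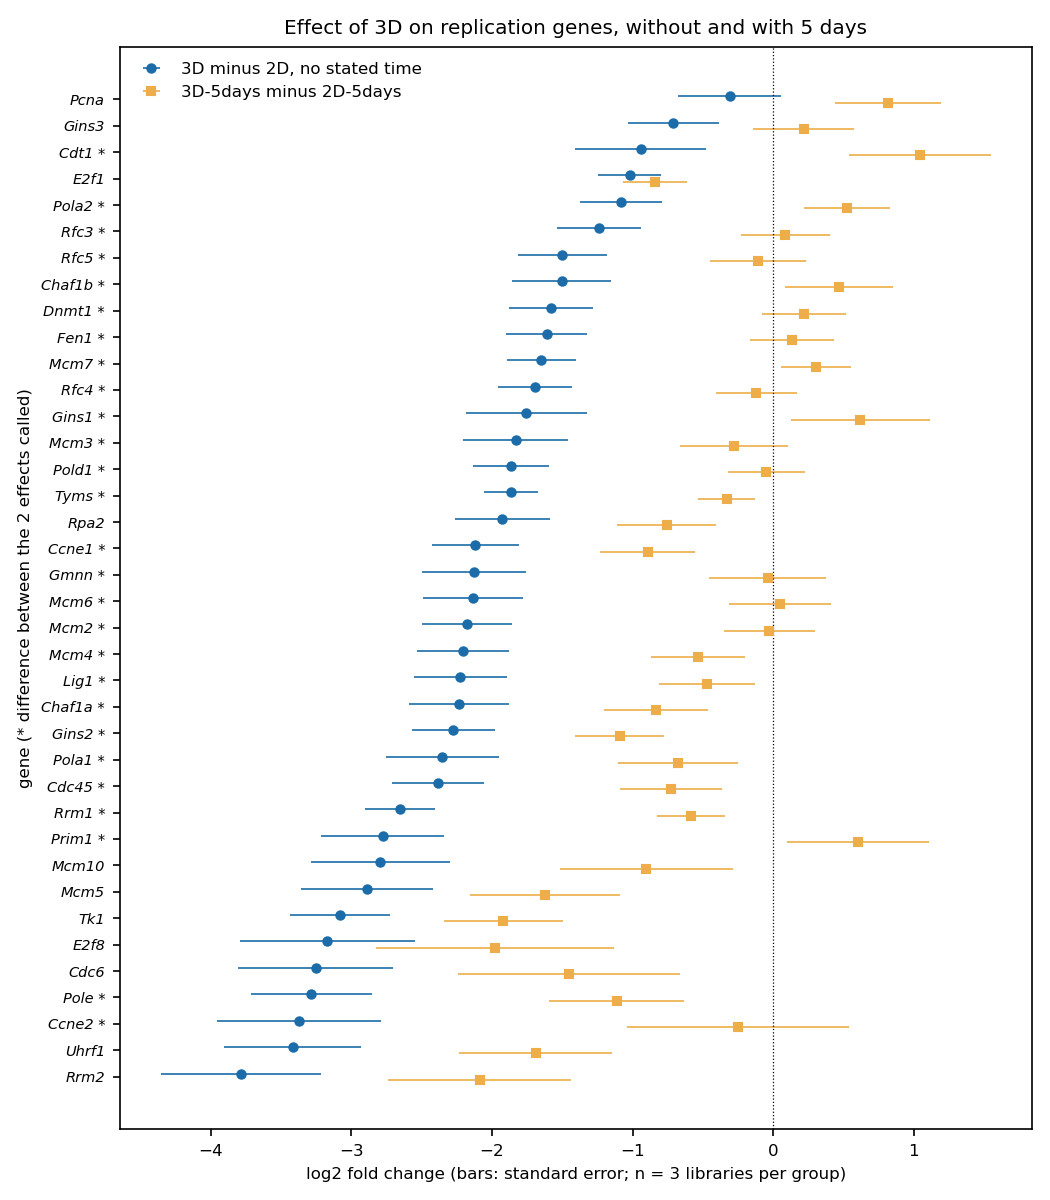
Log2 fold change of 3D against 2D (x axis, bars are standard errors, n = 3 libraries per group) for each gene (y axis), with no stated time (circles) and at 5 days (squares). A star marks the 27 genes whose 2 effects differed. E2f1 has nearly the same value in both (-1.02 and -0.84), while Prim1 goes from -2.78 to 0.60.

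No replication gene was called between the 3 flat cultures of stated stiffness. For 8 against 0.5, 64 against 0.5 and 64 against 8 kPa, 0% of all tested genes were called in either direction. No member reached an unadjusted p under 0.05 by edgeR. DESeq2 also called 0 of 38 in each. Over all tested genes 82, 175 and 241 had an unadjusted p under 0.05. The medians of the 38 genes were -0.01, -0.11 and -0.11. The libraries of a group were wide apart: Rrm2 was at 48.2, 67.9 and 153 CPM at 0.5 kPa, at 62.6, 57.5 and 130 CPM at 8 kPa and at 43.4, 45.7 and 138 CPM at 64 kPa. Mcm6 was at 60.2, 67.0 and 145 CPM, at 77.9, 66.5 and 129 CPM and at 59.7, 58.5 and 135 CPM. In both genes replicate 3 was highest in every stiffness, and averaged over the 38 genes it lay 0.76 to 1.22 log2 units above replicates 1 and 2. The numbers paired these libraries, and a block for them also called 0 genes in each comparison. Tyms did not share this split, with 46.5, 52.6 and 42.6 CPM at 0.5 kPa and 53.8, 46.6 and 36.5 CPM at 8 kPa.

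Genes around the replication machinery, from lists that hold none of the 38, were set beside them. Of 48 further replication genes, such as Ssrp1, a histone chaperone of the fork, and Rpa1, the large single-strand binding subunit, 39 fell and 0 rose in 3D against 2D, with a median of -1.26, where 27.3% of all tested genes were called lower and 26.7% higher. Rpa1 fell by 1.72 ± 0.16 and Ssrp1 by 1.0 ± 0.14 on the log2 scale, whereas Chtf8, a subunit of an alternative clamp loader, was at -0.21 ± 0.09 and not called. In 2D-5days against 2D, 36 of the 48 fell and 2 rose, namely Pold4, a small polymerase delta subunit (1.12 ± 0.28), and Rnaseh2c, a subunit of an RNase H (0.45 ± 0.14), with 22.3% of all tested genes called in each direction. In 3D-2D against 3D, 38 rose and 1 fell, the helicase gene Mcm9 (-0.62 ± 0.25), with 28.8% of all tested genes called higher and 27.7% lower. At 5 days 10 of 48 fell and 4 rose, with a median of -0.15, which is close to the shares of all tested genes called lower (17.5%) and higher (14.9%).

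Of 20 mitosis and cytokinesis genes all 20 fell in 3D against 2D, with a median of -4.05. At 5 days 19 of 20 also fell, with a median of -2.90, where 7 of the 38 replication genes fell. The shares of all tested genes called lower were 27.3% in 3D against 2D and 17.5% at 5 days. Mki67, the proliferation antigen, was at a mean of 385 CPM in 2D, 24.5 CPM in 3D, 36.0 CPM in 2D-5days and 4.12 CPM in 3D-5days, and Top2a, the topoisomerase that untangles copied chromosomes, at 268, 17.5, 29.6 and 2.82 CPM. The 5-day change was -3.18 ± 0.81 for Mki67 and -3.42 ± 0.58 for Top2a. All 20 mitosis genes were lower in 3D-2D-3D than in 3D-2D-2D (median -2.56), with 20.6% of all tested genes called lower. In 3D-2D 11 of 20 were lower than in 2D (median -1.40), where 1 of the 38 replication genes was, with 7.54% of all tested genes called lower. The difference between the 2 effects of 3D was called above 0 in 7 of the 20, against 27 of the 38 replication genes and 12.3% of all tested genes. Whether the lists differ from each other was not tested.

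**Figure D5:**
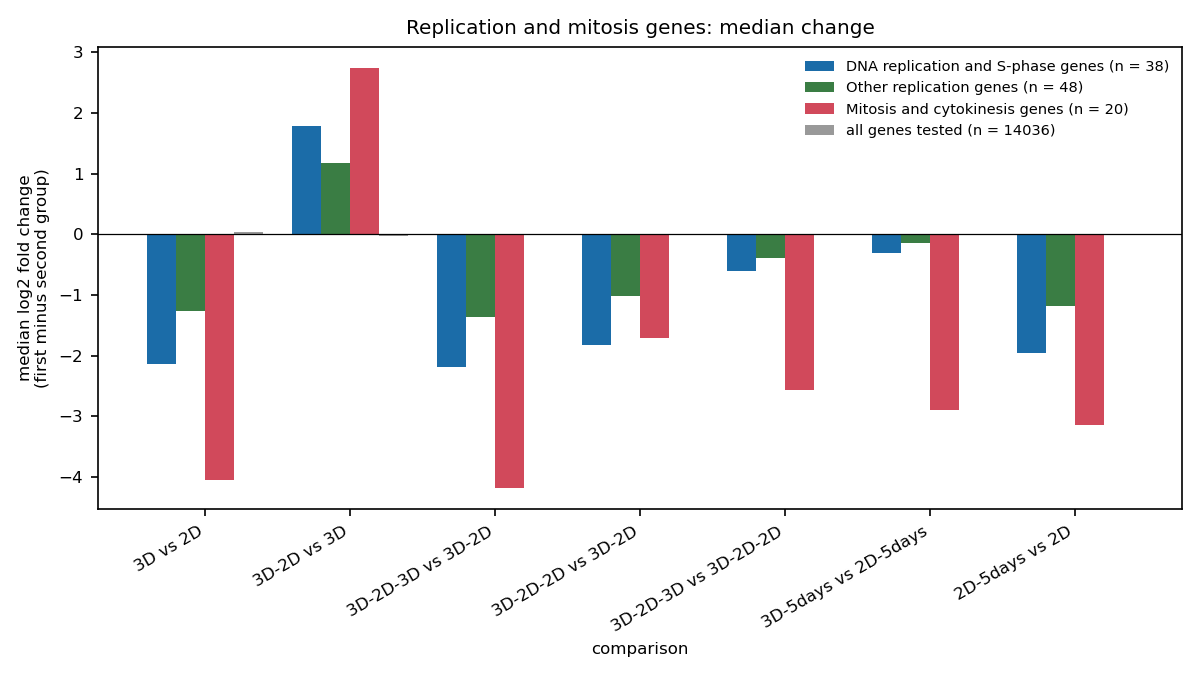
Median log2 fold change (y axis) of the replication genes and of the other gene lists in each comparison (x axis). In 3D against 2D the medians are -2.13 for the 38 replication genes, -1.26 for further replication genes and -4.05 for mitosis genes, and at 5 days they are -0.31, -0.15 and -2.90.

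Among 14 partners and regulators of the E2F factors, 11 fell and 1 rose in 3D against 2D, with a median of -0.74. Of all tested genes 27.3% were called lower and 26.7% higher. Tfdp1, the dimer partner of E2F factors, fell from a mean of 166 to 54.5 CPM (-1.61 ± 0.09), and E2f4, a repressor E2F, fell by 0.61 ± 0.14 on the log2 scale. The gene that rose was Rbl2, which encodes the pocket protein p130 that holds E2F targets off in resting cells. It was at a mean of 35.2 CPM in 2D and 73.9 CPM in 3D (1.07 ± 0.12), fell by 1.45 ± 0.14 in 3D-2D against 3D, and rose by 1.38 ± 0.14 in 3D-2D-3D and by 0.98 ± 0.14 in 3D-2D-2D against 3D-2D. It also rose by 0.80 ± 0.12 in 2D-5days against 2D, and at 5 days 3D and 2D differed by 0.09 ± 0.12, which was not called. In each of these called comparisons its sign was opposite to the median of the 38 genes.

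Of 10 cyclin-dependent kinase inhibitors and D cyclins, 3 rose and 5 fell in 3D against 2D. The 3 are near the 26.7% of all tested genes called higher, and the 5 stand beside 27.3% called lower. Ccnd2, a D cyclin, fell from a mean of 963 to 225 CPM (-2.10 ± 0.28) and Ccnd1, another, from 562 to 103 CPM (-2.44 ± 0.84). The inhibitors Cdkn1a (0.58 ± 0.12), Cdkn2b (1.0 ± 0.30) and Cdkn1c (1.74 ± 0.40) rose. The other genes of the list that fell are not named here and include inhibitors, so that the inhibitors did not all move alike. Ccnd2 was at a mean of 891 CPM in 2D-5days and of 1200.0 CPM in 3D-2D-2D, groups in which most of the 38 genes were low. The change of Ccnd2 was -0.11 ± 0.27 in 2D-5days against 2D and -0.06 ± 0.30 in 3D-2D-2D against 3D-2D, and neither was called.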

How the data were processed

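RNA of cultured mouse cardiac fibroblasts was sequenced in 29 libraries. The values used are raw read counts of gene symbols in a single table that the authors deposited without normalization. The submitters' processing notes name TopHat, HTSeq, Bowtie and MACS2 without version or role, and the mm10 build. The strand setting is not given in the sources used here, so that reads of overlapping and antisense genes may be mixed. The 5 summary lines of the counter were left out.

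Differences were tested with edgeR 4.0.16 (limma 3.58.1, R 4.3.3) on the deposited counts. One fit held all 29 libraries, with a mean for each group, after the filterByExpr filter and TMM scaling. P-values of the robust quasi-likelihood test were adjusted over 14036 genes (Benjamini-Hochberg). A gene was called at an adjusted p under 0.05. The prior count for mean log2 CPM was 2. Sequencing depth was 8509987 to 29909400 gene counts per library, and reads carry no molecular identifiers, so they are not independent molecules. The tests were tried on simulated data.

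The 38 genes, the other gene lists and the comparisons were chosen with earlier results of these data known. Levels in every library are given for 18 leading genes, which are the 2 with the highest mean level in each of 7 roles and the 3 largest and 3 smallest changes in 3D against 2D, and for other members named in the text. Other lists are named by up to 3 most abundant members and by members called against the majority.

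Same-numbered libraries counted as pairs where their deviations from the group means correlated above 0.1 in every one of 3 pairs. This held for 3D against 2D, 3D-2D-3D against 3D, the 5-day groups (0.288 to 0.572) and the 3 stiffness comparisons, although in all of these but 64 against 8 kPa a library of another number correlated more for at least 1 number. Alternatives were DESeq2 1.42.0, other scalings (RLE size factors, library totals alone), other filters (1 CPM in at least 3 libraries, or none), the compared groups fitted alone, a replicate block, leaving out libraries and summing the most alike ones.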

Additional observations from a re-analysis of the deposited data

Results flagged for a closer look

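The effect of 3D differed between the 5-day cultures and the cultures with no stated time, by the test of the difference itself (edgeR's quasi-likelihood test, n = 3 libraries per group), in 27 of the 38 replication genes. In all 27 the 5-day effect minus the other effect was above 0. Among the 18 leading genes the difference on the log2 scale was 3.13 for Ccne2, 2.18 for Mcm6, 2.07 for Rrm1, 1.98 for Cdt1, 1.81 for Pold1, 1.80 for Dnmt1, 1.75 for Lig1, 1.67 for Mcm4, 1.65 for Cdc45, 1.61 for Pola2, 1.40 for Chaf1a, 1.22 for Ccne1 and 1.18 for Gins2. Of the 13, Ccne1 lost its call in all 12 fits that left out a library, Chaf1a in 10, Gins2 in 9, Cdt1 in 8 and Ccne2 in 3, and the other 8 kept theirs. Leading genes without such a call were Rrm2, Uhrf1, E2f1, Pcna and Gins3.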

How the results depend on the processing

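For the 18 leading genes, 104 called changes were refitted under the alternatives, which gave 1578 values. None of these changed sign, and the call was kept in 1449 and lost in 129. Their 148 changes that were not called gave 2164 values, of which 253 had the other sign and 64 passed the test. Among these was Pcna in 3D against 2D and in 3D-2D against 3D, where leaving out replicate 3 of 3D turned the sign. Counts of called genes stayed within 1.5 times of the main count in every alternative for 3D against 2D (35 to 36 when a library was left out), 3D-2D against 3D (31 to 35), 3D-2D-3D against 3D-2D (34 to 36), 3D-2D-2D against 3D-2D (32 to 36), 2D-5days against 2D (36 to 37) and the 3 stiffness comparisons (0 throughout). Other counts moved, and the cause was not tested, except that summing and leaving out libraries lower the number of samples. Summing the most alike libraries, which was added after the data had been seen, gave counts of 0 for 3D-2D against 2D (main 1), 6 for 3D-2D-3D against 3D-2D-2D (main 14), 0 for 3D-2D-3D against 3D (main 5), 1 at 5 days (main 7), 0 for 3D-5days against 3D (main 2) and 8 for the difference of the effects (main 27). Fitting the compared groups alone gave 24, 2, 13 and 0 for 3D-2D-3D against 3D-2D-2D, 3D-2D-3D against 3D, the 5-day groups and 3D-5days against 3D. The replicate block gave 18 for 3D-2D against 2D, 22 for 3D-2D-3D against 3D-2D-2D, 20 at 5 days and 0 for 3D-5days against 3D. It changed no other count by more than 1.5 times, and outside the paired comparisons the numbers share a name only. DESeq2 gave 10 for 3D-2D-3D against 3D and 6 for 3D-5days against 3D. Replicate 3 alone gave 0 for 3D-2D against 2D and 0 for 3D-2D-3D against 3D, where replicates 1 and 2 alone gave 9. Leaving out 1 library at a time gave 0 to 1 for 3D-2D against 2D, 8 to 12 for 3D-2D-3D against 3D-2D-2D, 3 to 16 for 3D-2D-3D against 3D, 3 to 6 at 5 days, 0 to 7 for 3D-5days against 3D and 19 to 29 for the difference of the effects. Library totals as the only scaling moved the median change of all genes by at most 0.23, in 3D-2D-3D against 3D-2D-2D, and by 0.13 in 3D against 2D and at 5 days, while RLE size factors moved it by less than 0.1 in every comparison. A gene near 1 CPM, such as Ccne2 or Cdc6 in the low groups, rests on few reads, and its changes are the least precise.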

Other observations

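Replication-dependent histone genes have mRNAs that normally peak in S phase and mostly lack poly(A) tails. Histone genes were picked here by symbol alone, and whether each is replication-dependent was not checked. The picked genes that passed the filter on low counts did not follow the 38 genes. The others were not tested, so that the class as a whole is not described. Of 67 such symbols 12 passed the filter on low counts, and in 3D against 2D 6 of these rose and 0 fell, where 26.7% of all tested genes were called higher and 27.3% lower, with a median log2 change of 0.68 (edgeR's quasi-likelihood test, n = 3 libraries per group). Hist1h1c, a linker histone gene, was at a mean of 32.8 CPM in 2D and 89.9 CPM in 3D (1.46 ± 0.18), and fell by 1.38 ± 0.20 in 3D-2D against 3D. Hist1h2bc was at 32.7 and 52.9 CPM (0.69 ± 0.15), and 3D-2D differed from 3D by 0.11 ± 0.17, which was not called. Whether the library preparation kept RNA without poly(A) tails is not given in the sources used here.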
